A study of Mus musculus with 16 samples.

Results

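The 39 genes described here encode the sarcomere, its calcium handling and the enzymes that serve contraction. They were picked by name from the 24411 genes of the count table. They comprise 4 embryonic and early differentiation isoforms (Myh3, Myh8, Actc1 and Myl4), 16 adult fast fibre genes, 6 slow fibre and cardiac-type genes and 13 genes shared by fibre types. RNA was sequenced from mouse muscle stem cells (MuSCs), the Pax7-expressing cells that repair muscle, in 4 groups of 4 libraries: control and TRF2 MuSC-cKO, each uninjured and 3 days post injury (3 DPI). TRF2, encoded by Terf2, is a telomere-binding protein of the shelterin complex. TRF2 MuSC-cKO mice carry a floxed TRF2 allele and Pax7-CreER, a Cre recombinase that acts in Pax7-expressing cells once tamoxifen is given. Tamoxifen was given 7 times from 8 to 10 weeks of age on a C57BL/6 background, and the age at which these libraries' cells were collected was not tied to them in the sources used here. The labels call the controls wild type, and whether they carried Cre or received tamoxifen was likewise not given. Injury was by notexin, a snake toxin that destroys muscle fibres, injected into the tibialis anterior. Cells were sorted as negative for CD45, CD31, CD11b and Sca1, and positive for α7-integrin and for VCAM or CD34.

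The sarcomere is the contractile unit of a muscle fibre. Myosin heavy and light chains form its thick filament, actin with tropomyosin and troponin its thin filament, and α-actinin anchors thin filaments at the Z-disc. Titin (Ttn) and nebulin (Neb) are giant proteins that span the thick and thin filament. Myosin isoforms change with age: Myh3 is the embryonic heavy chain and Myh8 the perinatal one, and both reappear in regenerating fibres. Myh1, Myh2 and Myh4 are the adult fast chains and Myh7 the slow chain. Actc1, cardiac α-actin, and Myl4, the embryonic light chain, are likewise expressed in early differentiation, while Acta1 is the adult skeletal actin. A quiescent MuSC is not a contractile cell, and whether RNA of these genes in a sorted sample comes from the cells or from adhering fibre material was not tested.

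The developmental and adult heavy chains can only be separated where their sequences differ, and the reads were 50 bases long and sequenced in pairs. In build GRCm38, Myh3 lies at chr11:67078300-67102291, Myh2 at chr11:67171027-67197517, Myh1 at chr11:67200052-67224575, Myh4 at chr11:67238029-67260446 and Myh8 at chr11:67277124-67308634, all on the plus strand. Myh7 lies at chr14:54970684-54994626 on the minus strand. The 60 coding bases most alike among the 6 chains are shown because a read from them can be assigned only by these few positions. Capitals mark the 4 positions that vary.
Myh3: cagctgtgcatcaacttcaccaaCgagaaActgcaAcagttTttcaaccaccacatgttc
Myh8: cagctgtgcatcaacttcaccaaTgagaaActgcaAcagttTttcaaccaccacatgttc
Myh1: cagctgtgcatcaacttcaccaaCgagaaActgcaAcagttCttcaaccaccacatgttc
Myh2: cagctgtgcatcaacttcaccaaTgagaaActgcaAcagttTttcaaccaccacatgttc
Myh4: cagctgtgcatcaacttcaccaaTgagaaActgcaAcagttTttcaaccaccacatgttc
Myh7: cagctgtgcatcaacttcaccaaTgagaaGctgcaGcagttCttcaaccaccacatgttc
Myh8, Myh2 and Myh4 are identical over this stretch, so a read inside it does not separate them unless its mate, which lies elsewhere on the fragment, does, while Myh3, Myh1 and Myh7 each differ from every other chain. It lies in exon 14 of Myh3, at chr11:67088573-67088632, and in exon 15 of Myh8, at chr11:67288214-67288273.

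The 60 coding bases least alike show the other extreme, with capitals at the 43 positions that vary among the 6 chains. They lie in exons 15 and 16 of Myh3, between chr11:67089067-67089242 with an intron inside, and in exon 16 of Myh8, at chr11:67289776-67289835.
Myh3: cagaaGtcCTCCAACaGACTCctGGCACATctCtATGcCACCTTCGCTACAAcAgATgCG
Myh8: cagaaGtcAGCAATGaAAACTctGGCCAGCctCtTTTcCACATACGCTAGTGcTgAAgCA
Myh1: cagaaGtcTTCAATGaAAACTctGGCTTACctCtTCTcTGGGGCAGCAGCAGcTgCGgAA
Myh2: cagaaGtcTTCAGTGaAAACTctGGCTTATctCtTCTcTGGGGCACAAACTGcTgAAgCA
Myh4: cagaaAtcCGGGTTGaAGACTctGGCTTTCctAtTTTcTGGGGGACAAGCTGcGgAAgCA
Myh7: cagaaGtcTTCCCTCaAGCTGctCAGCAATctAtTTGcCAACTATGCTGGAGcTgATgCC
Over the whole coding sequence, Myh3 shared 80.8% of aligned bases with Myh8 and 80.2% with Myh1, whereas Myh8 shared 89.2% with Myh1. Of all 50-base windows, 4.99% in Myh3 also occurred in transcripts of another gene, against 22.7% in Myh8, 31.6% in Myh1, 28.6% in Myh2, 19.6% in Myh4 and 30.3% in Myh7. These shares are for single reads and take no account of mates. Counting only the other listed chains, they were 3.79% in Myh3, 21.1% in Myh8, 27.2% in Myh1, 27.9% in Myh2, 19.2% in Myh4 and 0.226% in Myh7, whose shared windows were mostly with the cardiac chain Myh6. The estimates for Myh8, Myh1, Myh2, Myh4 and Myh7 were not whole numbers, to within 0.001, in any of the 16 libraries, as reads divided among genes give. Of the 6 chains, Myh3 had the lowest share of windows also found in any other gene. Counting listed chains alone, Myh7 had the lowest. The Myh3 estimates too were not whole in 13 of the 16 libraries. Values of all 6 chains carry the uncertainty of that division. The same holds for Ttn, not whole in 15 libraries, Acta1 in 13, Ryr1 in 12, Actn3 in 11, Neb in 7 and Tpm1 in 5.

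Libraries were shallow, with 620506 to 1351130 estimated counts, so that 1 count equals 0.823 to 1.54 CPM, the count scaled to library size. The library labelled TRF2 MuSC-cKO 3 DPI replicate 3 held 15387 genes with a count, against 19996 to 21879 in the other 15. It had 13 of the 39 members at 0 and was the highest of all 16 for 10 others. Terf2 itself averaged 76.4 ± 12.5 CPM (SD, n = 4) in uninjured controls and 45.6 ± 13.2 in uninjured TRF2 MuSC-cKO. The log2 fold change of -0.62 (SE 0.27) did not pass edgeR's quasi-likelihood test (adjusted p = 0.199). At 3 DPI it averaged 43.8 ± 6.11 in controls and 57.8 ± 28.4 in the libraries labelled TRF2 MuSC-cKO (adjusted p = 0.755 by the same test). The label was therefore not borne out by Terf2 at 3 DPI, although counts over the whole gene need not reveal a deleted exon. The summed level of 10 MuSC markers was 3850 to 6223 CPM in uninjured controls, 2197 to 3290 in uninjured TRF2 MuSC-cKO, 880 to 1248 in controls at 3 DPI and 474 to 685 in the labelled cKO at 3 DPI. That of 8 leukocyte markers was 58.5 to 109, 103 to 170, 4440 to 5678 and 1866 to 5203 in the same order, and no marker of either list was at 0 throughout a group. In bulk samples, fewer cells of a type and less RNA per cell cannot be told apart.

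Levels differed widely among the members. In uninjured controls, level per transcript length, scaled to the library's total, placed Tpm1, a tropomyosin, first at 181 ± 29.4 (SD, n = 4). Mylk2, the skeletal myosin light chain kinase, followed at 162 ± 25.2, within the spread of Tpm1. Tpm2 stood at 114 ± 34.3, Mybpc1, the slow myosin-binding protein C, at 98.2 ± 10.6, and Actn3, the fast-fibre α-actinin, at 69.0 ± 7.69. Genes that dominate mature fibre RNA stood lower on this scale. Acta1 ranked 7 at 46.1 ± 17.5, and Ckm, muscle creatine kinase, stood far lower at 14.6 ± 7.99. Among the heavy chains, Myh1 was at 21.0 ± 3.35, Myh3 at 16.3 ± 3.59, Myh4 at 13.6 ± 6.57 and Myh8 at 10.6 ± 4.97, so these neighbours lay within or near each other's spread. Tpm1 was first in all 4 groups, and tropomyosin genes are also expressed outside muscle fibres. Mylk2 ranked 2 in uninjured controls, 3 in uninjured TRF2 MuSC-cKO, 12 in controls at 3 DPI and 10 in the labelled cKO at 3 DPI.

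**Figure D1:**
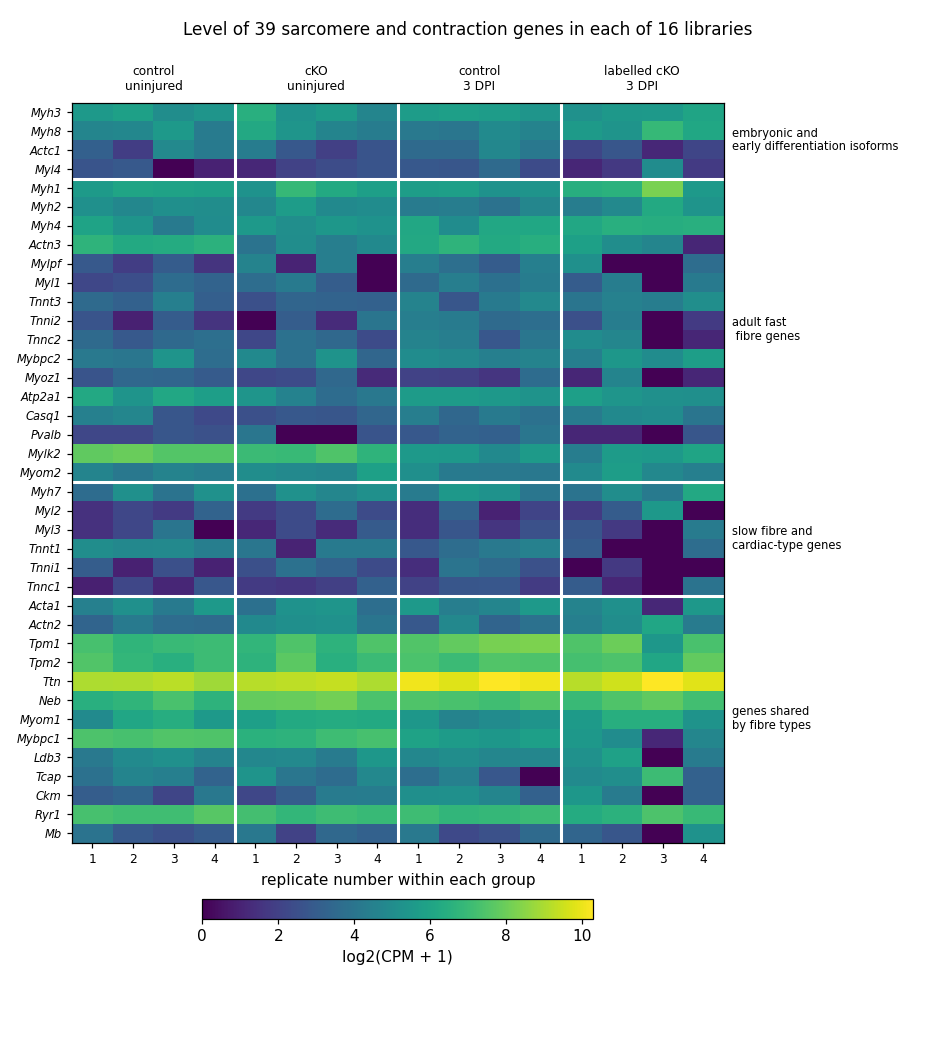
Level of each of the 39 members (vertical axis, by list) in each of the 16 libraries (horizontal axis, by group), coloured by log2(CPM + 1) as given in the colour bar. The library labelled TRF2 MuSC-cKO 3 DPI replicate 3 has 13 members at 0.

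Summed levels of adult fast fibre RNA and of embryonic RNA were set side by side, with no test. The 16 adult fast fibre genes summed to 590 ± 45.4 CPM in uninjured controls, 439.9 ± 48.4 in uninjured TRF2 MuSC-cKO, 455 ± 49.3 in controls at 3 DPI and 538 ± 106 in the labelled cKO at 3 DPI (SD, n = 4 each). Per length, which gives short genes equal weight, the same sums were 496, 474, 519 and 537, so the order of the groups depended on the scale. It also depended on Mylk2: without that gene, an alternative chosen after seeing the data, the CPM sums were 379 ± 42.6, 308 ± 34.8, 413 ± 41.7 and 493 ± 108. The lower mean of controls at 3 DPI against uninjured controls thus turned to a higher one. The 4 embryonic and early differentiation isoforms summed to 89.9 ± 12.0, 101 ± 56.1, 93.1 ± 16.0 and 129 ± 50.4 CPM, with overlapping ranges of 78.0 to 106, 54.5 to 182, 83.9 to 117 and 88.8 to 196. Per length their means were 59.8, 72.1, 73.1 and 90.4. The 6 slow fibre and cardiac-type genes summed to 66.6 ± 8.38, 61.0 ± 15.9, 62.5 ± 25.1 and 64.9 ± 36.6 CPM, and single libraries ranged from 32.4 to 118. Per length their means were 123, 129, 103 and 139. The 13 shared genes, of which Ttn has the highest CPM, summed to 1389 ± 59.6, 1545 ± 102, 1970 ± 183 and 1734 ± 276 CPM. Per length the shared genes summed to 620 ± 35.2, 839 ± 98.5, 798 ± 46.2 and 884 ± 117, so their order depended on the scale as well. Over all 39 members the mean CPM sums, for the groups as listed above, were 2135, 2147, 2580 and 2466. Without Ttn they were 1607, 1549, 1514 and 1587, so the highest mean moved from controls at 3 DPI to uninjured controls.

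**Figure D2:**
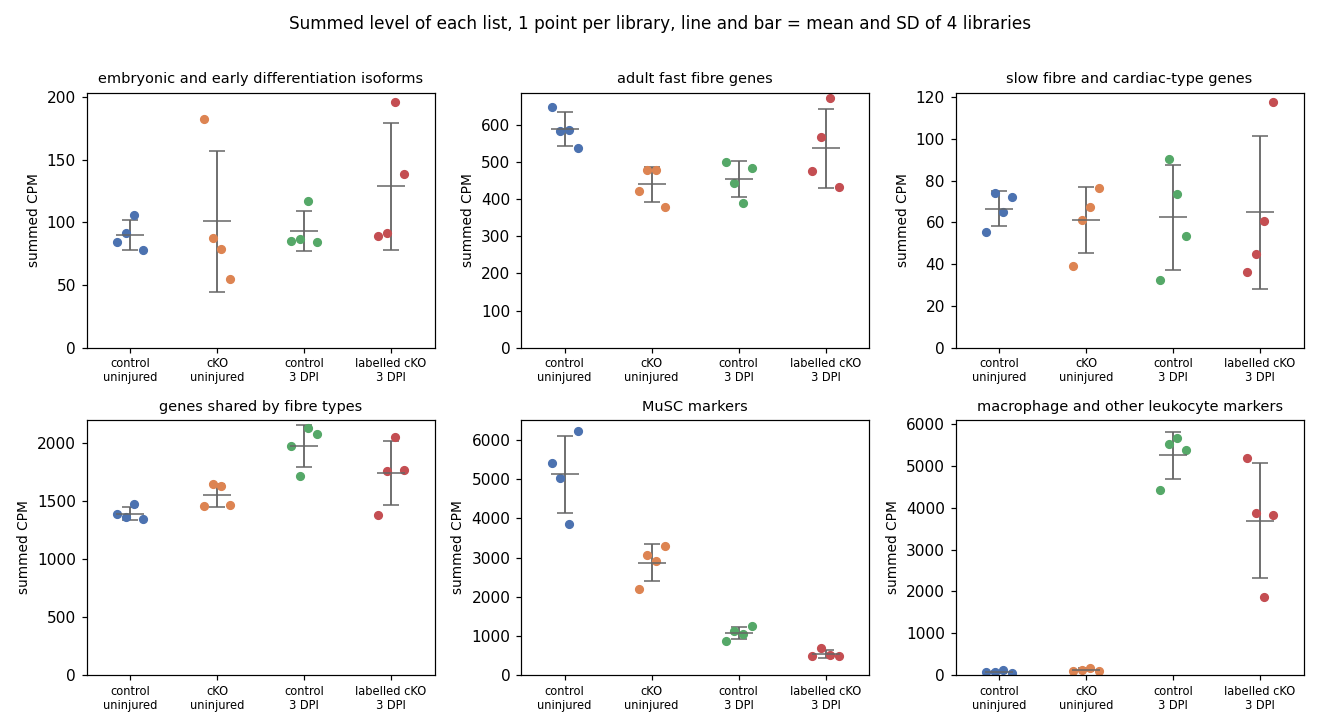
Summed CPM (vertical axis) of the gene lists in each library (points) by group, with the mean and SD. The embryonic sums overlap among the 4 groups, while the mean CPM sum of the shared genes is highest in controls at 3 DPI, an order that does not hold per length.

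The embryonic chain Myh3 was detected in every library, from 24.5 to 88.8 CPM, with both extremes in uninjured TRF2 MuSC-cKO. It measured 45.6, 56.7, 32.6 and 40.9 CPM in uninjured controls and 88.8, 37.4, 47.2 and 24.5 in uninjured TRF2 MuSC-cKO. At 3 DPI it measured 51.0, 54.5, 50.2 and 40.3 in controls and 36.2, 43.8, 45.9 and 62.9 in the libraries labelled TRF2 MuSC-cKO. All 4 groups overlapped. By edgeR's quasi-likelihood test its log2 fold change was 0.30 (SE 0.32, adjusted p = 0.639) between genotypes without injury, -0.01 (SE 0.34, adjusted p = 0.998) between genotypes at 3 DPI and 0.19 (SE 0.28, adjusted p = 0.706) with injury in controls.

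The perinatal chain Myh8 measured 25.0, 26.1, 45.3 and 18.5 CPM in uninjured controls and 73.4, 40.5, 24.3 and 19.1 in uninjured TRF2 MuSC-cKO, with overlap. At 3 DPI it measured 17.0, 15.6, 29.5 and 23.0 in controls and 47.9, 39.2, 118 and 69.9 in the libraries labelled TRF2 MuSC-cKO. Those 2 groups did not overlap at 3 DPI, yet the log2 fold change of 1.73 (SE 0.45) did not pass edgeR's quasi-likelihood test (adjusted p = 0.452). Without replicate 3 of the labelled cKO it was 1.30 (SE 0.38, adjusted p = 0.154 by that test). The highest Myh8 value belonged to that same replicate, in which Myh1 was also highest.

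Actc1 and Myl4 rested on few counts in many libraries. Actc1 measured 8.04, 2.701, 27.9 and 17.5 CPM in uninjured controls, 18.9, 6.23, 2.86 and 5.45 in uninjured TRF2 MuSC-cKO, 10.8, 10.7, 26.6 and 16.5 in controls at 3 DPI, and 3.51, 5.77, 1.24 and 3.49 in the libraries labelled TRF2 MuSC-cKO at 3 DPI. Every Actc1 value of the labelled cKO at 3 DPI lay below every control value at 3 DPI, but the gene did not pass the filter on low counts in that comparison and has no test there. With injury in controls its log2 fold change was 0.28 (SE 0.52, adjusted p = 0.776 by edgeR's quasi-likelihood test). Myl4 was at 0 to 6.30 CPM in uninjured controls, 1.18 to 5.45 in uninjured TRF2 MuSC-cKO, 4.11 to 10.8 in controls at 3 DPI and 1.17 to 31.0 in the labelled cKO at 3 DPI, where the next highest library was at 2.33. It passed the filter in no comparison of 2 groups.

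**Figure D3:**
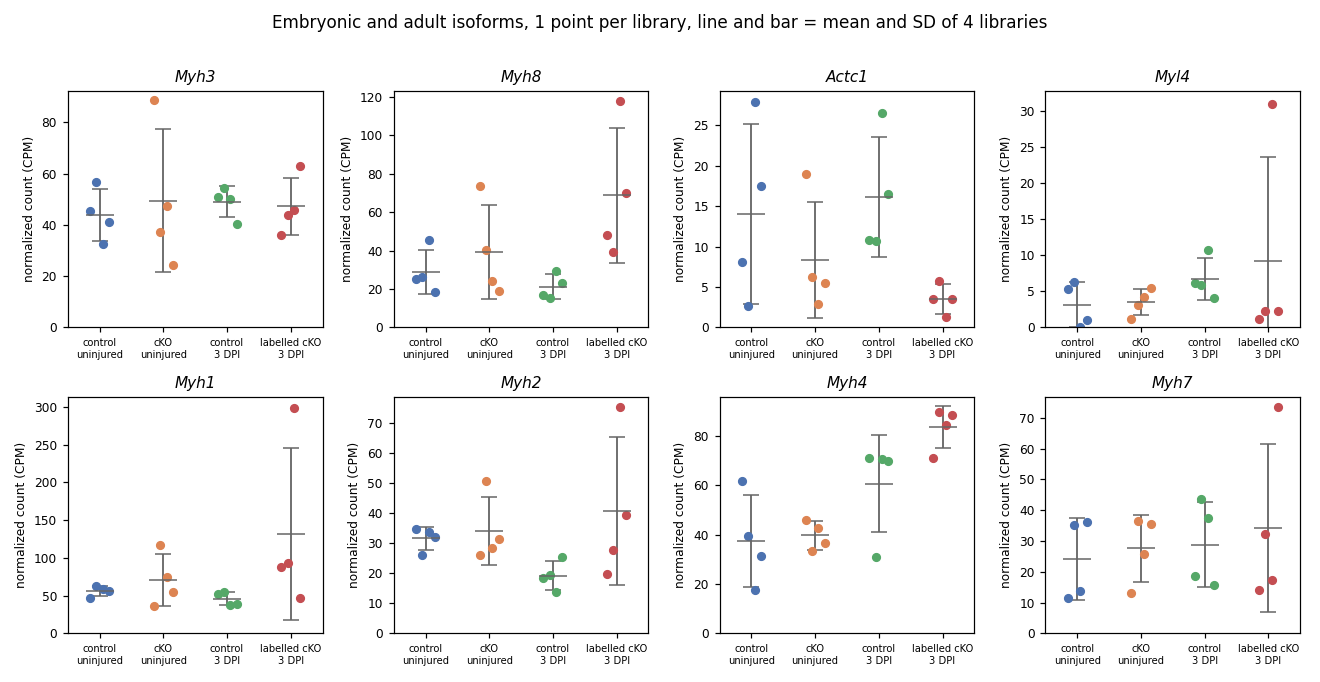
CPM (vertical axis) of embryonic and adult isoforms in each library (points) of the 4 groups, with the mean and SD. Myh3 overlaps among all groups, and Myh8 at 3 DPI is at 15.6 to 29.5 CPM in controls and 39.2 to 118 in the labelled cKO.

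The adult chains and actin overlapped between the uninjured groups. Myh1 measured 47.4, 63.0, 59.3 and 56.5 CPM in uninjured controls and 36.7, 117, 74.4 and 54.5 in uninjured TRF2 MuSC-cKO, and Myh4 61.6, 39.6, 17.4 and 31.2 against 46.2, 33.2, 42.9 and 36.8. Acta1 measured 21.4, 35.1, 17.4 and 44.8 CPM in uninjured controls and 13.02, 37.4, 40.1 and 12.3 in uninjured TRF2 MuSC-cKO. None of the 3 passed the test in that comparison. At 3 DPI Acta1 measured 46.3, 20.4, 24.6 and 46.9 in controls and 23.4, 34.6, 1.24 and 44.3 in the libraries labelled TRF2 MuSC-cKO.

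Loss of TRF2 without injury was addressed by comparing the uninjured groups. Actn3 fell and Neb rose, and no other member was called. A call required an adjusted p below 0.02 and a fold change above 1.5 by edgeR's quasi-likelihood test. Of the 23 members tested, 1 was called higher and 1 lower, where 0.584% of all 14048 genes tested were called higher, 2.63% lower and 3.22% in either direction. Unadjusted p was below 0.05 for 6 of the 23 members and for 19.5% of all genes. Groups did not overlap for 2 members that were higher (Neb and Myom2) and 4 that were lower (Actn3, Mylk2, Tnnt1 and Mybpc1), against 3.43% and 9.18% of all genes. The median log2 fold change of the members was 0.24, and that of all genes 0.06.

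Actn3, at chr19:4861216-4877909 on the minus strand, encodes the α-actinin of fast fibre Z-discs. It measured 102, 74.7, 79.1 and 97.5 CPM in uninjured controls and 14.2, 32.2, 20.0 and 28.6 in uninjured TRF2 MuSC-cKO. Every cKO library lay below every control. Its log2 fold change was -1.76 (SE 0.30, adjusted p = 0.000114 by edgeR's quasi-likelihood test). Neb, at chr2:52136647-52378474 on the minus strand, measured 89.3, 106, 163 and 100.4 CPM in uninjured controls and 232, 240.0, 273 and 166 in uninjured TRF2 MuSC-cKO. The lowest cKO library was just above the highest control. The log2 fold change was 1.11 (SE 0.22, adjusted p = 0.000776 by the same test). Both were called whichever single library was left out. Neither was called with the rescaled table (adjusted p = 0.0278 for Actn3 and 0.217 for Neb by the same test) or with all 16 libraries in 1 fit (0.0585 and 0.0449). The log2 fold changes stayed of like size, at -1.80 and 1.05 with the rescaled table and -1.88 and 0.99 in the joint fit, while calls over all genes dropped from 452 to 17 and 82. The codes in the description labels, whose meaning is not stated, differ between these groups in every library, so code and genotype cannot be told apart. At 3 DPI, by contrast, replicates 1 and 2 of controls and replicates 1 and 2 of the labelled cKO all carry the same code.

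Some members came near. Atp2a1, the fast-fibre calcium pump SERCA1, measured 73.3, 39.6, 72.1 and 53.6 CPM in uninjured controls and 40.2, 22.9, 11.45 and 16.3 in uninjured TRF2 MuSC-cKO. These groups overlapped by 1 library, and the log2 fold change of -1.24 (SE 0.35) did not pass (adjusted p = 0.0249 by edgeR's quasi-likelihood test); without cKO replicate 1 it was -1.69 with adjusted p = 0.00529. Atp2a1 shares 763 exon bases with Rabep2 on the opposite strand. Actn2, the α-actinin of all fibres, had a log2 fold change of 1.32 (SE 0.45, adjusted p = 0.0793 by the same test). With at least 10 counts required in every library, Actn2 was called, at 1.40 (adjusted p = 0.0047 by that test). The summed MuSC markers differed between the same groups. Those of 6 fibroadipogenic cell markers were 4456 to 6954 CPM in uninjured controls and 986 to 1971 in uninjured TRF2 MuSC-cKO, with 2 of 5 tested called lower and 1 higher. Estimates were above 0 for 3 of these 5 and below 0 for 2, with a median log2 fold change of 0.65. The part of either in these values was not tested.

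**Figure D4:**
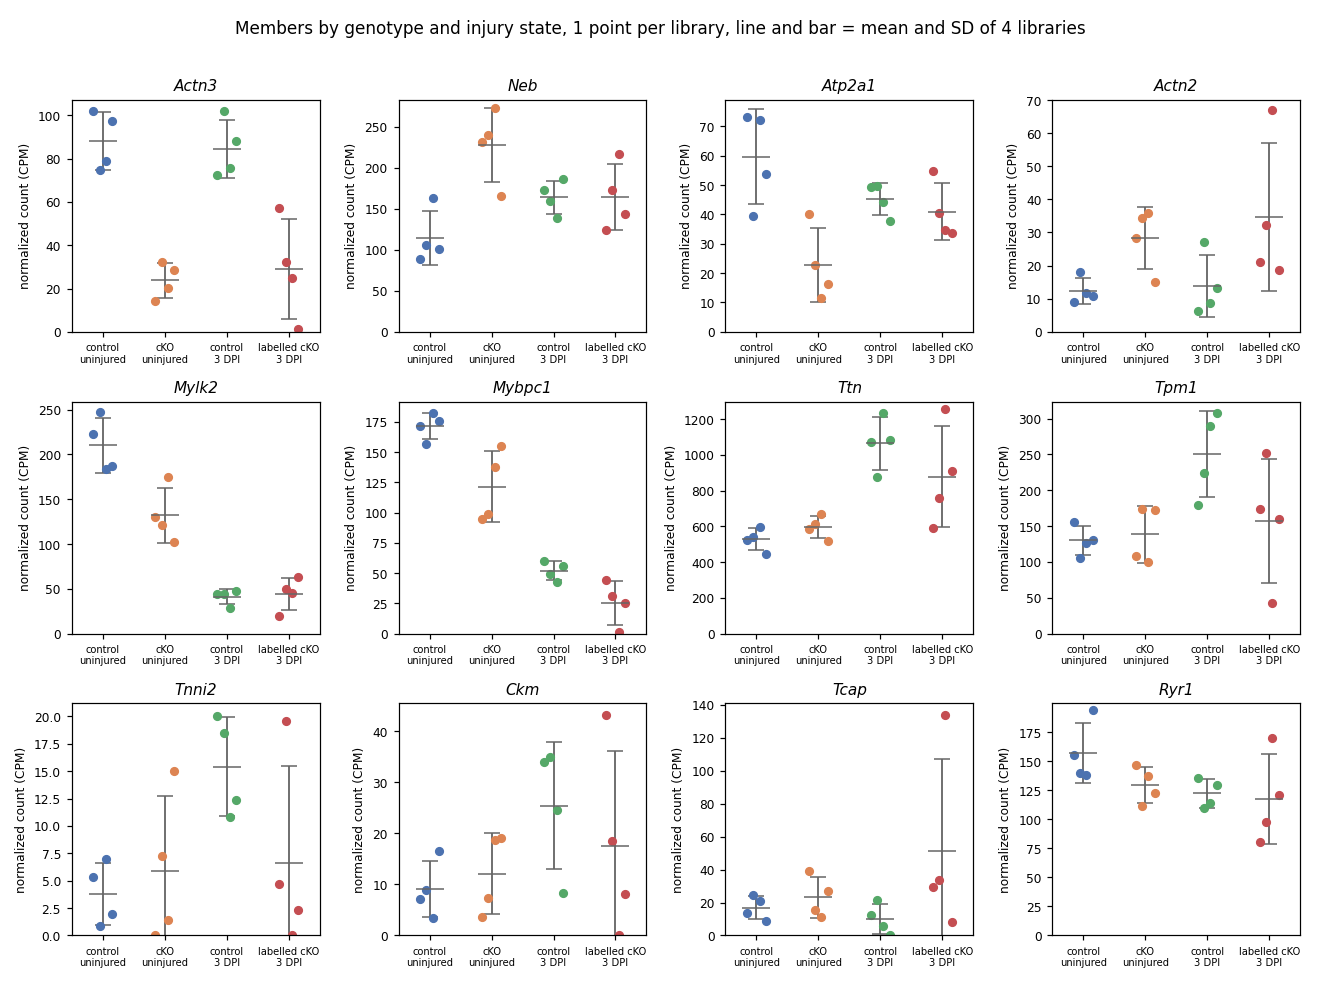
CPM (vertical axis) of the 8 members called in a comparison and of Atp2a1, Actn2, Tcap and Ryr1, which were called in none, in each library (points) of the 4 groups, with the mean and SD. Uninjured TRF2 MuSC-cKO libraries lie at 14.2 to 32.2 for Actn3, below the controls at 74.7 to 102.

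The same genotypes were compared at 3 DPI. No member was called, nor was any of all 14559 genes (0%), and the spread between these libraries was wide, so differences, large ones included, may have gone undetected. By unadjusted p below 0.05 there were 7 of 28 members and 9.36% of all genes, and limma's robust fit called 28 genes and DESeq2 22 genes, none of them members. Among the members tested, groups did not overlap for Myh8 and Myh4, which were higher, and Actn3, which was lower, against 2.97% and 4.87% of all genes in these directions. Myh4 measured 71.0, 31.1, 70.8 and 69.9 CPM in controls and 71.3, 90.0, 84.3 and 88.5 in the libraries labelled TRF2 MuSC-cKO. Actn3 measured 72.6, 102, 75.7 and 88.0 in controls and 57.3, 32.3, 24.8 and 1.16 in the labelled cKO, a log2 fold change of -1.51 (adjusted p = 0.514 by edgeR's quasi-likelihood test). Myh1 measured 52.5, 54.5, 37.4 and 39.5 against 87.6, 93.4, 299 and 46.6. Its log2 fold change was 1.58 (SE 0.50, adjusted p = 0.453 by the same test) and 0.75 without replicate 3. Tcap, the titin cap protein of the Z-disc, was at 0 to 21.4 CPM in controls and 8.15 to 134 in the labelled cKO, with a log2 fold change of 2.44 and of 1.29 without replicate 3. The highest value of both genes was in replicate 3, and Myh1 in 2 further labelled cKO libraries was above every control.

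Injury was addressed by comparing controls at 3 DPI with uninjured controls. Of the members, 4 rose (Ttn, Tpm1, Tnni2 and Ckm) and 2 fell (Mylk2 and Mybpc1), with 30 tested. Among all 15356 genes tested, 10.8% were called higher, 9.46% lower and 20.2% in either direction. Unadjusted p was below 0.05 for 11 of the members tested and for 32.5% of all genes. Groups did not overlap for 3 members that were higher and 4 that were lower, against 12.0% and 12.3% of all genes. The median log2 fold change was 0.21 for the members and 0.07 for all genes.

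Mylk2, at chr2:152911352-152923068 on the plus strand, measured 222, 248, 184 and 187 CPM in uninjured controls and 44.8, 43.8, 28.5 and 47.7 in controls at 3 DPI. Mybpc1, at chr10:88518279-88605152 on the minus strand, measured 172, 157, 183 and 175 CPM and then 60.2, 49.6, 42.3 and 56.0. For both genes the groups lay far apart. The log2 fold changes were -2.31 (SE 0.22, adjusted p = 1.33e-11) for Mylk2 and -1.69 (SE 0.21, adjusted p = 1.51e-08) for Mybpc1 by edgeR's quasi-likelihood test, and both calls held in all 20 alternatives. All 10 MuSC markers fell and all 8 leukocyte markers rose in this comparison, and their part in these changes was not tested.

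Ttn, at chr2:76703980-76982547 on the minus strand, encodes the elastic filament of the sarcomere. It measured 525, 543, 598 and 448 CPM in uninjured controls and 1070.2, 876, 1237 and 1081 at 3 DPI. Tpm1, at chr9:67022590-67049406 on the minus strand, measured 156, 106, 127 and 131 CPM and then 179, 225, 290.1 and 309. Neither gene overlapped between the groups. The log2 fold change was 1.05 (SE 0.19, adjusted p = 1.77e-05) for Ttn and 0.99 (SE 0.20, adjusted p = 0.000126) for Tpm1 by edgeR's quasi-likelihood test. The Ttn call was lost with the rescaled table (adjusted p = 0.0388), and the Tpm1 call with limma's robust fit (0.0233) and with all 16 libraries in 1 fit (0.0719). The log2 fold changes stayed of like size, at 0.96 for Ttn and at 0.96 and 0.95 for Tpm1.

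Tnni2, fast troponin I, at chr7:142441808-142444410 on the plus strand, measured 5.36, 0.900, 6.98 and 1.95 CPM in uninjured controls and 20.1, 18.5, 10.8 and 12.3 at 3 DPI. Ckm, at chr7:19404776-19422841 on the plus strand, measured 7.15, 9.004, 3.49 and 16.6 CPM and then 34.0, 35.0, 24.6 and 8.23. Tnni2 did not overlap, whereas 1 injured library of Ckm lay below 2 of the uninjured ones. The log2 fold changes were 2.04 (SE 0.64, adjusted p = 0.0142) for Tnni2 and 1.49 (SE 0.49, adjusted p = 0.0197) for Ckm by edgeR's quasi-likelihood test. These rest on few counts. The Tnni2 call was lost on leaving out any single library other than uninjured control replicate 3, with adjusted p up to 0.0659. Over the single libraries left out, its log2 fold change was 1.67 to 2.43. That call was also lost by limma-voom (adjusted p = 0.0524). By edgeR's test it was lost with a block for replicate number (0.0227) and with all 16 libraries in 1 fit (0.26). The Ckm call was lost on leaving out any single library other than replicate 4 of either group, with adjusted p up to 0.115. Over the single libraries left out, its log2 fold change was 1.21 to 1.89. That call was also lost by limma's robust fit (adjusted p = 0.0275), limma-voom (0.0978) and DESeq2 (0.0280). By edgeR's test it was lost with scaling by median-of-ratios size factors (0.0247) and with a block for replicate number (0.0420). The same test lost it with the rescaled table (0.0922) and with all 16 libraries in 1 fit (0.313). With only the libraries sharing a label code, 1 uninjured and 2 at 3 DPI, the log2 fold change of Ckm was -0.0537.

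Sequence before the start sites is shown for the 4 members called with injury in controls that the table held, from RefSeq on GRCm38.p6. The table held promoters for 31 of the 39 members. Capitals mark matches to CANNTG, the E-box bound by myogenic factors such as MyoD, searched over the 150 bases before the start. The motif reads the same way on both strands in this form.
Mybpc1: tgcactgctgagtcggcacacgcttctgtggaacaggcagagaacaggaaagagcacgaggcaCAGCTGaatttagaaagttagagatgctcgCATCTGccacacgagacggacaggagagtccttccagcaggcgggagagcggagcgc
Ttn: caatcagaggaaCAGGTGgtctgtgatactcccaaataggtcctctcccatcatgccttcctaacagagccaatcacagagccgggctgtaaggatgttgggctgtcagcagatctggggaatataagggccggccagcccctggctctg
Ckm: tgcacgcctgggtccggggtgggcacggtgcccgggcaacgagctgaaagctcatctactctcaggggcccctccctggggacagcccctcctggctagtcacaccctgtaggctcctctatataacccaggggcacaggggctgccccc
Tpm1: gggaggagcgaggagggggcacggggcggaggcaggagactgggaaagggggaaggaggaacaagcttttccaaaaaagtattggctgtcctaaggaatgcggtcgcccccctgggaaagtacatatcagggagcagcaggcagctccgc
Those of Mybpc1, Ttn and Tpm1 lie at chr10:88605153-88605302, chr2:76982548-76982697 and chr9:67049214-67049363 on the minus strand, and that of Ckm at chr7:19410944-19411093 on the plus strand. Mybpc1 holds 2 matches, Ttn 1, and Tpm1 and Ckm 0. CANNTG occurred in 52.6% of the 38 member promoters and in 47.7% of 32851 promoters of the same length.

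**Figure D5:**
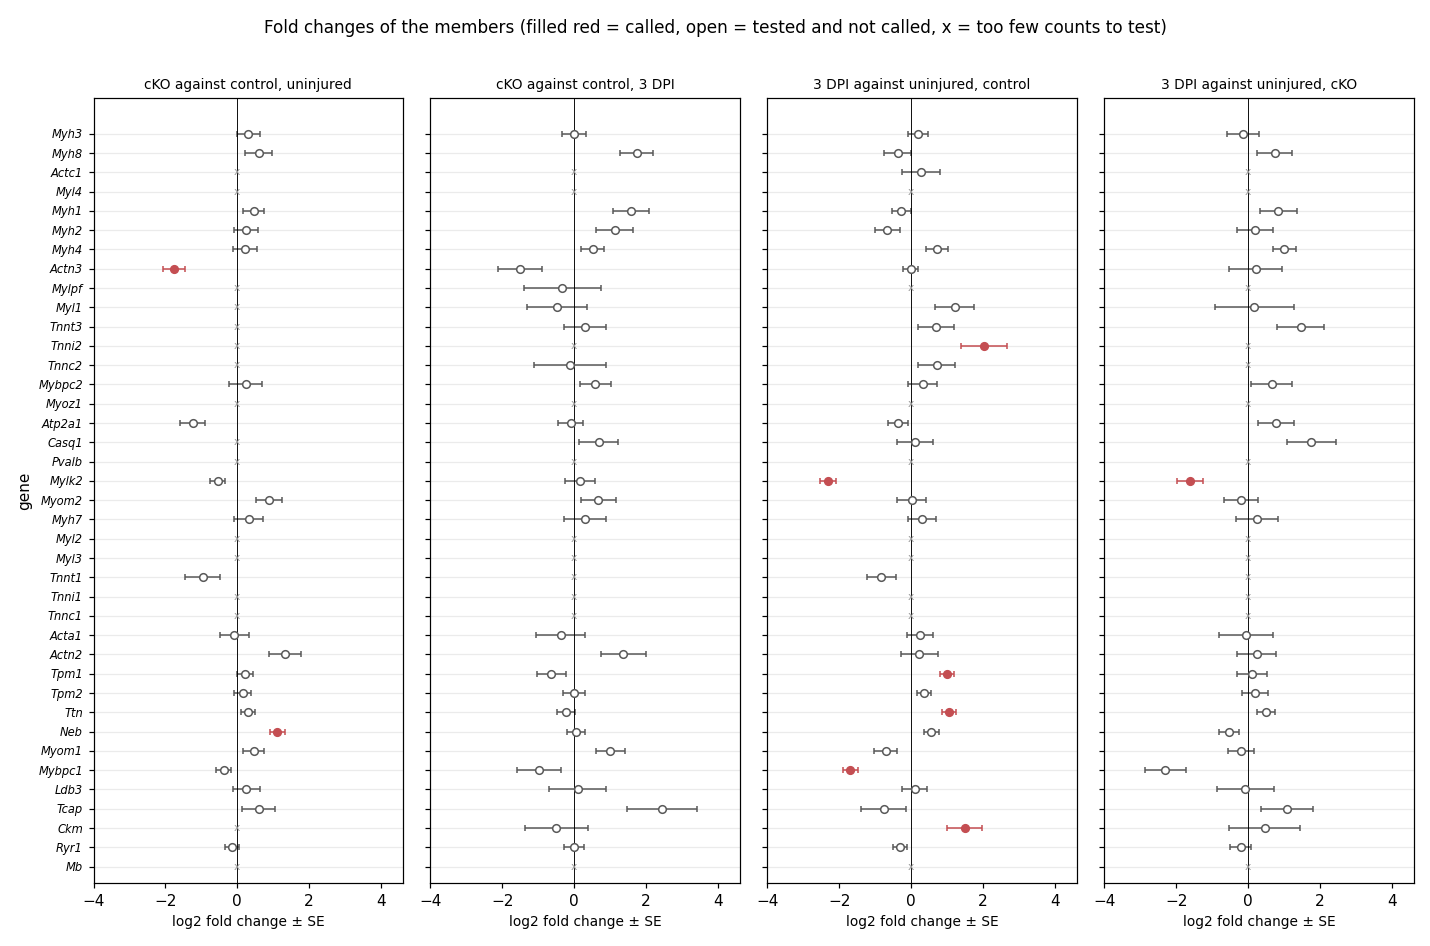
Log2 fold change (horizontal axis) with its standard error for the members tested (vertical axis) in the comparisons of genotype and of injury, by edgeR's quasi-likelihood test. Mylk2 is lower with injury in both genotypes, at -2.31 in controls and -1.63 between the labelled cKO at 3 DPI and the uninjured TRF2 MuSC-cKO.

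The members that did not pass with injury in controls include the isoforms that mark regenerating fibres. Myh8 had a log2 fold change of -0.38 (adjusted p = 0.55 by edgeR's quasi-likelihood test). Among adult genes, Acta1 had 0.25 (adjusted p = 0.696) and Actn3 -0.02 (adjusted p = 0.974) by the same test. Neb had 0.56 (SE 0.21, adjusted p = 0.0476).

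In TRF2 MuSC-cKO, injury was assessed between the labelled 3 DPI libraries and the uninjured ones. The spread between these libraries was wider than in the comparison of controls, so differences, large ones included, may have gone undetected. Mylk2 fell, and it was the only one of 26 members tested to be called, where 2.43% of all 14578 genes were called higher, 1.61% lower and 4.04% in either direction. It measured 130.2, 122, 175 and 102 CPM without injury and 19.9, 49.6, 45.9 and 62.9 at 3 DPI, with no overlap. The log2 fold change was -1.63 (SE 0.36, adjusted p = 0.0142 by edgeR's quasi-likelihood test). The call was lost on leaving out any single library other than replicate 3 at 3 DPI, with adjusted p up to 0.0728, while the log2 fold change stayed between -1.39 and -1.80. In this comparison 8 of 10 MuSC markers were called lower and 7 of 8 leukocyte markers higher, and their part was not tested. Mybpc1 measured 94.7, 98.7, 137 and 155 CPM and then 44.4, 31.1, 1.24 and 25.6. Its groups did not overlap either, and its log2 fold change was -2.31 (SE 0.57, adjusted p = 0.0265 by that test). Without replicate 3 it was -1.88 (SE 0.33, adjusted p = 7.37e-05). Groups also did not overlap for Myh4, Casq1 and Tnnt3, which were higher, against 6.90% of all genes in that direction, and 6.70% in the other. Ttn measured 587, 615, 671 and 520.3 CPM and then 589, 759, 1258 and 911, a log2 fold change of 0.50 (adjusted p = 0.374 by the same test).

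Whether injury acted differently in the 2 genotypes was tested by the interaction term over all 16 libraries. No member was called, of 32 tested, where 0.0178% of all 16822 genes were called. The spread between libraries was wide here too, so differences, large ones included, may have gone undetected. By unadjusted p below 0.05 there were 2 members and 5.74% of all genes. These were Neb, at -0.99 (SE 0.35, adjusted p = 0.645), and Atp2a1, at 1.23 (SE 0.53, adjusted p = 0.795) by edgeR's quasi-likelihood test. The difference for Mylk2 was 0.79 (SE 0.41, adjusted p = 0.887). The 4 comparisons share groups, so their values are not independent of one another.

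Of all 39 members, 8 (Myl4, Myoz1, Pvalb, Myl2, Myl3, Tnni1, Tnnc1 and Mb) passed the filter on low counts in none of the 4 comparisons of groups, 9 in some and 22 in all. These 8 include slow light chains and troponins and the oxygen and calcium binders of fibres.

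Other genes of the same machinery were followed as a list of 47. At 3 DPI none of 34 was called between genotypes, where 0% of all genes were called. Unadjusted p by edgeR's quasi-likelihood test was below 0.05 for 9 of the 34 and for 9.36% of all genes. Estimates were above 0 for 19 and below 0 for 15. With injury in controls 3 of 36 rose, namely Tnnt2 by 2.04, Eno3 by 1.83 and Tpm3 by 1.69, and 2 were lower, Jsrp1 at -1.59 and Pygm at -0.93, where 10.8% of all genes were called higher and 9.46% lower. Tnnt2 is the cardiac troponin T also expressed in developing muscle, and Tpm3 a tropomyosin of slow fibres and of cells outside muscle. In TRF2 MuSC-cKO Tpm3 alone of 35 was called with injury, at 1.69, where 2.43% of all genes were called higher.

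Differentiation genes were followed as a list of 20. Without injury, 4 of 14 tested were lower in TRF2 MuSC-cKO: Myog at -2.04, Myod1 at -1.14, Chrnb1 at -0.99 and Cdh15 at -0.94 on the log2 scale, where 2.63% of all genes were called lower. In the same comparison 6 of 10 MuSC markers were called lower, and their part was not tested. Cdh15 is in both lists. Myod1 and Myog encode transcription factors that drive myogenic commitment and differentiation. One was higher, the cell cycle inhibitor Cdkn1a, at 2.37, where 0.584% of all genes were called higher. None of 15 was called between genotypes at 3 DPI, where 0% of all genes were called. Estimates were below 0 for 13 of the 15 and above 0 for 2. Groups did not overlap for 6 that were lower and 0 that were higher, against 4.87% and 2.97% of all genes. Estimates of all 10 MuSC markers were below 0 as well, and their part was not tested. With injury in controls, Mef2a, Mef2c and Rb1 rose and Dmd, Chrnb1, Cdh15 and Des fell, of 16 tested, against the same 10.8% and 9.46% of all genes. In TRF2 MuSC-cKO 5 of 15 fell with injury, among them Chrnb1 at -3.38 and Cdh15 at -2.98, where 1.61% of all genes were called lower. With injury, 10 of 10 MuSC markers were called lower in controls and 8 of 10 in TRF2 MuSC-cKO, and their part was not tested here either. In the interaction, 1 of 17 was called, Cdkn1a at -2.40 (SE 0.32, adjusted p = 0.000944 by edgeR's quasi-likelihood test), where 3 of all genes were called.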

How the data were processed

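Libraries were random-primed and strand-keeping, from sorted-cell RNA after ribosomal RNA removal. Per the submitters' processing notes, the authors trimmed reads with Trim Galore 0.6.7, aligned them with STAR 2.6.1d and estimated gene counts with Salmon 1.5.2 on GRCm38. The libraries carried molecular identifiers, and their use in counting was not given in the sources used here. The authors deposited a table of estimated counts per gene, used here rounded to whole numbers, and a second, rescaled table that was used for levels per length and as an alternative.

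Counts were tested with edgeR 4.0.16 (R 4.3.3): filterByExpr, TMM scaling, a robust quasi-likelihood fit on the groups compared, and Benjamini-Hochberg adjustment over all genes tested. A call required adjusted p below 0.02 and a fold change above 1.5. CPM values use TMM over all 16 libraries. limma 3.58.1 and DESeq2 1.42.0 were alternatives, as were other scalings, filters and subsets, and each library was left out in turn. Coding sequences of GENCODE were aligned with MAFFT 7.526. The scripts were tested on simulated data. The members and lists were chosen with earlier results of these data known. Members given by single libraries, in some or all groups, are those called, Myh3, Myh8, Actc1, Acta1, Myh1, Myh4, Ttn and Atp2a1. Myl4 is given by range. Replicates were not tied to animals by the sample labels, so p-values measure the spread between these libraries. Total estimated counts of 620506 to 1351130 per library make levels of a few CPM imprecise. One result of the list of other contractile genes is not reported here.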

Additional observations from a re-analysis of the deposited data

Results flagged for a closer look

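Of 176 groups of 4 libraries, 11 held 1 library far from the other 3. Chance gives about 1 in 20 for normally distributed values, and the rate for values of a few counts was not computed. The 176 include sums over the same genes. In the libraries labelled TRF2 MuSC-cKO at 3 DPI, replicate 3 was at 30.9925 CPM for Myl4 (others 1.17 to 2.33) and at 43.3895 for Myl2 (others 0 to 6.92). Replicate 2 of that group was at 24.2182 for Myoz1 (others 0 to 1.17) and at 2.30649 for Tnni1 (others 0). Among controls at 3 DPI, replicate 2 was at 31.1192 for Myh4 (others 69.9 to 71.0) and at 32.0917 for Ldb3 (others 25.5 to 26.3). In the same group, replicate 4 was at 11.5203 for Myoz1 (others 1.97 to 3.09), replicate 1 at 33.9742 for Myom2 (others 16.5 to 17.5), and replicate 3 at 117.035 for the summed embryonic isoforms (others 83.9 to 86.6). In uninjured TRF2 MuSC-cKO, replicate 2 was at 1.03888 for Tnnt1 (others 15.4 to 17.7) and replicate 4 at 8.17168 for Tnnc1 (others 2.08 to 2.86).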

How the results depend on the processing

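Over 139 results of a member in a comparison, 2840 alternatives were computed. Of these, 2777 left the call as it was, 42 ended it, 20 made one and 1 turned a called direction, with causes not tested. Most of the 139 results were not called at first and had no call to lose. With injury in controls, the call ended in 13 of 19 alternatives for Ckm and 11 of 18 for Tnni2. It ended in 2 of 20 for Tpm1, 1 of 20 for Ttn and 0 of 20 for Mylk2 and for Mybpc1. Between uninjured genotypes it ended in 2 of 19 for Actn3 and for Neb. For Mylk2 with injury in TRF2 MuSC-cKO it ended in 11 of 20. Between uninjured genotypes, members called lower numbered 2 with DESeq2, with no filter on low counts, with the replicate block and at adjusted p below 0.05 with no minimum fold change, and members called higher numbered 2 with at least 10 counts in every library. Both counts were 0 with the rescaled table and with all 16 libraries in 1 fit. With injury in controls, members called higher numbered 2 with limma-voom, DESeq2, the replicate block, the rescaled table and the libraries of the shared label code, and 1 with all 16 libraries in 1 fit. Ckm turned to -0.0537 with the libraries of the shared label code, a prefix in the description label whose meaning is not stated. In each injury comparison that subset holds 1 uninjured library and 2 at 3 DPI, and the lone library is assumed to vary like the others, so it says little about stability. With injury in TRF2 MuSC-cKO, limma's robust fit gave 2 higher and 2 lower, members called lower numbered 2 with DESeq2, at adjusted p below 0.05 with no minimum fold change and with all 16 libraries in 1 fit, and 0 with library size alone, the replicate block, the rescaled table and the shared label code. The replicate numbers did not pair the libraries, with correlations of -0.11 to 0.11, and the block called 0 members between genotypes at 3 DPI and in the interaction.

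Leaving out 1 library gave 1 to 1 members higher and 1 to 2 lower between uninjured genotypes, 2 to 4 higher and 2 to 2 lower with injury in controls, 0 to 0 higher and 0 to 2 lower with injury in TRF2 MuSC-cKO, and 0 to 0 for genotype at 3 DPI and the interaction. The summed CPM of the members in uninjured controls was 1822.44 with library size alone. With the rescaled table the sums were 1298.61, 1515.01, 1493.36 and 1650.32 in uninjured controls, uninjured TRF2 MuSC-cKO, controls at 3 DPI and the labelled cKO at 3 DPI. Without Ttn they were 1606.76, 1548.62, 1513.92 and 1586.54 in the same order, and leaving out 1 library gave 2103.8 to 2170.84, 2105.69 to 2204.42, 2538.32 to 2661.87 and 2295.53 to 2629.13. Leaving Mylk2 out of the adult fast fibre sum, chosen after seeing the data, moved it to 379.294 CPM in uninjured controls and 307.807 in uninjured TRF2 MuSC-cKO. DESeq2 gave no adjusted p for Tnni2 with injury in controls. Library size alone shifted the all-gene median on the log2 scale by 0.19, 0.11, 0.16 and 0.12 in the 4 comparisons of groups. Depth limits members at a few CPM, where 1 count is up to 1.54 CPM.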
